A study of Mus musculus with 42 samples.

Results

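Carboxylesterases are serine hydrolases that split ester bonds in lipids, drugs and other foreign compounds, and hepatocytes are among the cells that make most of them. The mouse has a large family of these genes, and 8 that are made in liver were chosen here: Ces2a, Ces2c, Ces2e, Ces1d, Ces1f, Ces1g, Ces3a and Ces3b. Each gene was read from the probe sets that carry its symbol alone, taking the brightest. Ces2c was not analysed here, because no probe set in the annotation used carried its symbol alone, so 7 of the 8 chosen genes had values, out of 17989 genes on the array. Each of the 7 had 1 probe set. They were selected on their levels in high-fat diet and control livers, with Ces2a and Ces2e known to differ in opposite directions. The differences of the 7 genes from control are therefore a description and carry no test.

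RNA was measured in livers of wild-type male C3HeB/FeJ mice, an inbred strain, which were housed singly and fed at random before sampling. A high-fat diet (HFD) was given for 7 days (8 arrays, mice 15 weeks old), 14 days (8 arrays, 16 weeks) or 21 days (8 arrays, 17 weeks). Controls were 18 arrays from mice of 15 to 17 weeks on a low-fat diet for up to 21 days. Age thus moved with time on the HFD, while the controls were pooled over age. The labels number the arrays of a group without naming animals, so p-values measure the spread between these arrays, part of which may be technical. The word reanalysis stands in the titles of controls and of 21-day arrays alone, and any batch behind it cannot be told apart from diet at 7 and 14 days, nor from time when 21 days is set against the other HFD times.

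Most mouse carboxylesterases sit in the lumen of the endoplasmic reticulum, where VLDL is assembled. Ces1d, called triacylglycerol hydrolase or Ces3 in older work, mobilises stored triglyceride for VLDL, and Ces1f is a related lipase of the same compartment. Mice that lack Ces1g accumulate liver fat and secrete more triglyceride. Ces2a and Ces2c hydrolyse acylglycerols, and the Ces2 family also cleaves many ester drugs. Several Ces genes respond to the xenobiotic receptors PXR and CAR.

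The arrays carried a liver signal in every group. All 6 hepatocyte markers were measured, and their mean log2 value per array ran from 12.42 to 12.96 in HFD livers and from 12.55 to 12.94 in control livers. One of the 6, Cps1, averaged 11.43, 11.53 and 11.37 after 7, 14 and 21 days of HFD and 11.83 in controls. Group means of Apoa1, Serpina1c and Cyp2e1 were slightly above control at each time, and those of Alb and Ttr went both ways. The 95th percentile of 929 olfactory receptor genes, 2.86 on the log2 scale, served as a background level. Of 13 pancreatic acinar markers 10 were measured, all with group means above this level, and their mean per array ran from 3.60 to 9.67 at 7 days, 3.53 to 9.69 at 14 days and 3.42 to 6.60 at 21 days, against 3.44 to 8.90 in controls. All 8 Kupffer cell markers were above background, with group means of 6.07, 5.85 and 5.80 after 7, 14 and 21 days of HFD and 5.67 in controls. All 5 enterocyte markers were measured, with means per array of 3.54 to 3.98 over the HFD groups and 3.33 to 3.81 in controls. Group means were above background for 4 of the 5, but only Fabp2 was far above it. Fabp2 averaged 7.84, 7.46 and 7.23 after 7, 14 and 21 days of HFD and 6.21 in controls. The remaining enterocyte markers had group means of 2.17 to 3.13. Of 5 adipocyte markers 4 were measured, with at most 2 above background in any group. Malat1, a nuclear RNA, ran from 5.76 to 9.57 over the HFD arrays and from 5.49 to 9.54 over controls. The part of these levels in the results below was not tested, beyond a fit with acinar level and Malat1 as covariates. In whole liver, fewer cells of a type and less RNA per cell cannot be told apart.

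Ces2a was lower in HFD livers at each time. At 7 days its log2 values ran from 8.63 to 9.17 with a median of 8.95. At 14 days the lowest was 8.84, the median 9.12 and the highest 9.37, and at 21 days 8.66, 8.97 and 9.55. Controls ran from 9.04 to 9.72 with a median of 9.43. Of the 8 HFD arrays of each time, 6 lay below all 18 controls at 7 days, 2 at 14 days and 5 at 21 days, so the groups overlapped at each time. Against control the mean log2 difference was -0.49 ± 0.09 (SE) at 7 days, which is 1.40-fold lower, -0.27 ± 0.09 at 14 days and -0.36 ± 0.09 at 21 days.

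Ces2e, a neighbour of Ces2a from the same subfamily, was higher in HFD livers at each time. Its log2 values spanned 9.37 to 9.89 around a median of 9.56 at 7 days. They spanned 8.93 to 9.81 (median 9.58) at 14 days and 8.96 to 9.76 (median 9.46) at 21 days. Controls spread more widely, from 8.27 to 9.50 with a median of 8.97. Of 8 HFD arrays each, 4 at 7 days, 5 at 14 days and 4 at 21 days lay above all controls, and the others fell within the control range. The mean log2 difference from control was 0.62 ± 0.13 (SE) at 7 days, or 1.54-fold higher, 0.50 ± 0.13 at 14 days and 0.41 ± 0.13 at 21 days.

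**Figure D1:**
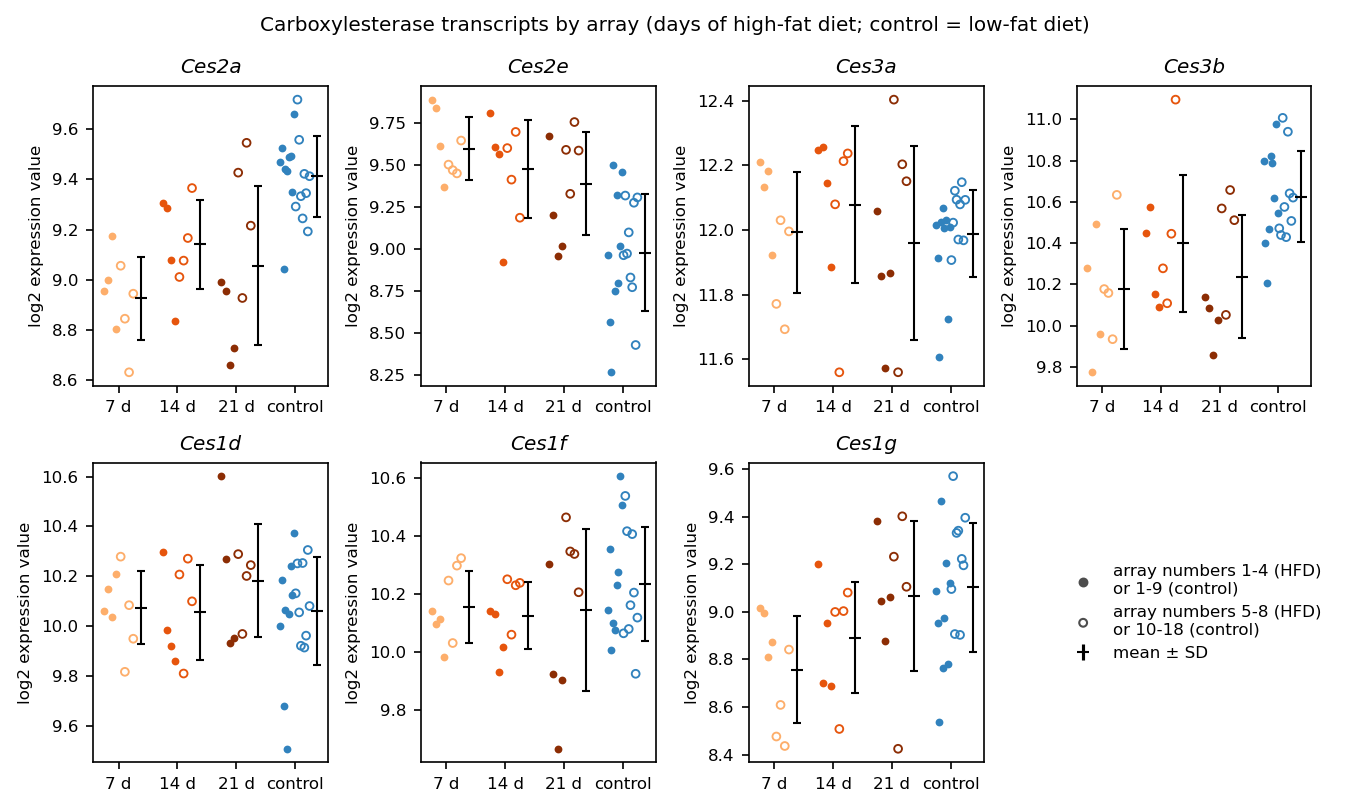
Log2 expression values (vertical axes) of the 7 measured carboxylesterases on each array, by days of HFD and in controls (horizontal axes); points are arrays, filled for the lower numbers in the labels and open for the higher, and bars are the mean ± SD of 8 HFD arrays or 18 controls. Ces2a and Ces3b sit lower and Ces2e higher in HFD livers with overlap, while Ces1d and Ces1f lie in the range of controls on most arrays.

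The paired change separated the diets more cleanly than either gene. The log2 ratio of Ces2e over Ces2a within an array has no absolute meaning, since the probe sets differ in affinity, but its shift between arrays does. It ran from 0.44 to 0.94 at 7 days (0.67 ± 0.18, SD, n = 8), from -0.18 to 0.59 at 14 days (0.34 ± 0.26, n = 8) and from 0.16 to 0.68 at 21 days (0.33 ± 0.16, n = 8). In controls it ran from -0.96 to 0.06 (-0.43 ± 0.28, n = 18). All 8 arrays at 7 days, 7 of 8 at 14 days and all 8 at 21 days lay above every control. The pair was chosen because its members differ in opposite directions, so a wider separation than for either gene follows from that choice. It is given without a test, and how many other gene pairs part the arrays as far was not examined.

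**Figure D2:**
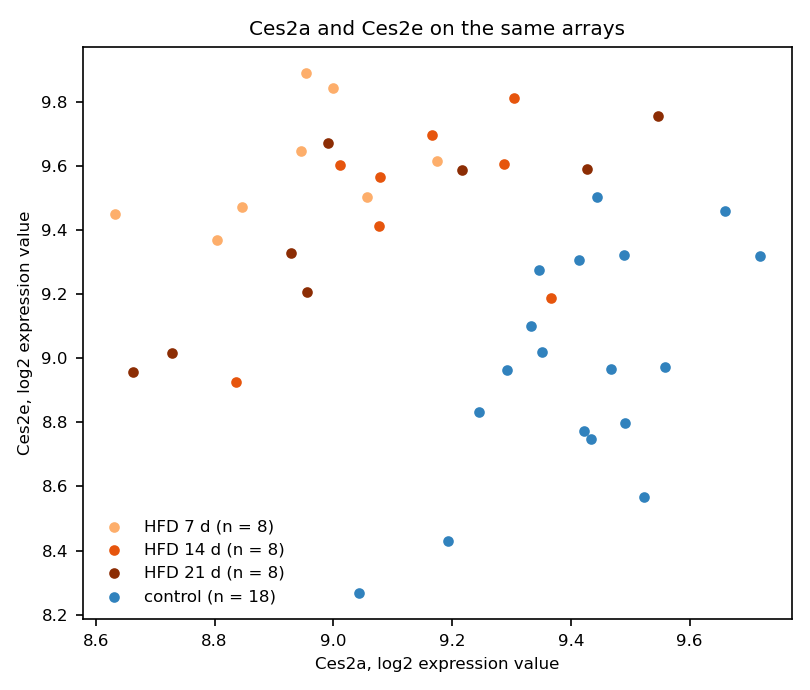
Ces2e (vertical axis) against Ces2a (horizontal axis), both as log2 expression values, with 1 point per array for 24 HFD arrays in 3 shades of orange and 18 controls in blue. HFD arrays lie up and to the left of controls, and within each cloud arrays with more Ces2a tended to have more Ces2e.

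The stretches upstream of Ces2a and Ces2e, the 2 members whose levels differed in opposite directions, are shown with that of Ces3b, which was lower like Ces2a. RefSeq promoter sequences (GRCm38.p6) were matched for 5 of the 8 chosen genes: Ces2a, Ces2c, Ces2e, Ces3b and Ces1g. The 250 bases before each start are printed 5′ to 3′ on the plus strand. Capitals in the first 2 mark every stretch of at least 10 bases that they share letter for letter, and capitals in Ces3b mark the motifs named in the next paragraph.
Ces2a, chr8:104733753-104734002: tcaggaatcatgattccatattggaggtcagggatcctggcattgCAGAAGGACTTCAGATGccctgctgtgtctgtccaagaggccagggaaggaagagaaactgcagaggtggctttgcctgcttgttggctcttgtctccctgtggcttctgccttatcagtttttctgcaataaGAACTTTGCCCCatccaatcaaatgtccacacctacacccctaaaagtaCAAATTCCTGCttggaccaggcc
Ces2e, chr8:104926010-104926259: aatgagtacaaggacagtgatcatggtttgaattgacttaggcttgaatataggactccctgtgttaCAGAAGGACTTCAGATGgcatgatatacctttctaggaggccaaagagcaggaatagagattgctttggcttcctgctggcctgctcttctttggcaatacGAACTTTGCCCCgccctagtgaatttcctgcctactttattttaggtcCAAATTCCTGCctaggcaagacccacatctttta
Ces3b, chr8:105083505-105083754: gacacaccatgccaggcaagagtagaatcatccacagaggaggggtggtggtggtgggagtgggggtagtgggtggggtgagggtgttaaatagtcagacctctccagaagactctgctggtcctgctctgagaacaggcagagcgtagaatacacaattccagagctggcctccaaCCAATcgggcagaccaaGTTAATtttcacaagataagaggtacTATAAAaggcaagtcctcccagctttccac

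Ces2a and Ces2e shared 3 such stretches, in the same order. The first, CAGAAGGACTTCAGATG, is 17 bases long and occurred on either strand in 2 of 32851 promoters, those of these 2 genes. The second, GAACTTTGCCCC, is 12 bases long, begins 72 bases before the start of Ces2a and 82 bases before that of Ces2e, and occurred in 3 of 32851 promoters. The last, CAAATTCCTGC, occurred in 8 promoters, Ces2g among them. In a global alignment 57.3% of columns were identical between Ces2a and Ces2e and 67.0% between Ces2a and Ces2c, while Ces2a and Ces3b, at 50.7%, were close to the 46.2% to 50.5% of the pairs with Ces1g.

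Of 4 short motifs searched on both strands, AGGTCA, the core that many nuclear receptors bind, lay 226 bases before the start of Ces2a. The same letters were not in the windows of Ces2e, Ces3b, Ces2c and Ces1g. AGGTCA occurred in 14.0% of all promoters. CCAAT, present in 33.8% of all promoters, occurred in Ces2a, Ces3b, Ces2c and Ces1g and not in Ces2e. TATAAA (12.4% of promoters) occurred 30 bases before the start of Ces3b and, on the other strand, 26 bases before that of Ces1g. GTTAAT, part of the HNF1 motif (6.43%), occurred 56 bases before the start of Ces3b and not in Ces1g. Neither letter string was in the windows of Ces2a, Ces2c and Ces2e. No 2 of these 4 motifs overlapped in Ces3b. A letter match in these windows is a description and was not set against binding data.

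Ces3b was lower in HFD livers and Ces3a, its neighbour, was not. Ces3b spanned 9.77 to 10.63 around a median of 10.17 at 7 days, 10.09 to 11.09 around 10.36 at 14 days and 9.86 to 10.66 around 10.11 at 21 days. Controls ran from 10.21 to 11.01 with a median of 10.60. At 7, 14 and 21 days 5, 3 and 5 of 8 HFD arrays lay below all controls, and at 14 days 1 array lay above all of them. Its mean log2 difference from control was -0.45 ± 0.11 (SE) at 7 days, -0.23 ± 0.11 at 14 days and -0.39 ± 0.11 at 21 days.

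Ces3a averaged 11.99 ± 0.19 at 7 days, 12.08 ± 0.24 at 14 days and 11.96 ± 0.30 at 21 days (SD, n = 8 each), and 11.99 ± 0.14 in controls (n = 18). Its differences from control were 0.00, 0.09 and -0.03 on the log2 scale, within the spread of the controls. The HFD arrays spread more widely than the controls at both ends: 9 of the 24 lay above all controls and 3 below. Those above were 2 at 7 days, 4 at 14 days and 3 at 21 days, and those below were 1 at 14 days and 2 at 21 days.

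The Ces1 members, which include the lipases named above, differed less. Ces1d averaged 10.07 ± 0.15, 10.06 ± 0.19 and 10.18 ± 0.23 after 7, 14 and 21 days of HFD (SD, n = 8 each) and 10.06 ± 0.22 in controls (n = 18). Ces1f averaged 10.15 ± 0.12, 10.12 ± 0.12 and 10.14 ± 0.28 in HFD livers in the same order and 10.23 ± 0.20 in controls. For both genes every difference from control was between -0.11 and 0.12 on the log2 scale, smaller than the SD of the controls. At 21 days 3 of 8 Ces1f arrays lay below all controls.

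Ces1g, whose loss raises liver fat in mice, was lower at 7 days, less so at 14 days and close to control at 21 days. It spanned 8.44 to 9.02 around a median of 8.83 at 7 days, 8.51 to 9.20 around 8.98 at 14 days and 8.42 to 9.40 around 9.08 at 21 days. Controls spanned 8.54 to 9.57 around 9.11. All 8 arrays at 7 days lay below the control mean, 7 of 8 at 14 days and 4 of 8 at 21 days. The log2 differences from control were -0.35 ± 0.11, -0.21 ± 0.11 and -0.04 ± 0.11 (SE). They depended on the controls used. Against controls 1 to 9 alone they were -0.23, -0.10 and 0.08, and against controls 10 to 18 alone -0.46, -0.33 and -0.15.

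Among all genes, limma called 208 higher and 43 lower at 7 days at an adjusted p under 0.05, that is 1.16% and 0.239% of 17989 genes. Of the 7 carboxylesterases 1 was called higher at 7 days, Ces2e, and 2 lower, Ces2a and Ces3b. At 14 days 0.506% of genes were called higher and 0.161% lower, and the members called were Ces2e (higher) and none lower. At 21 days 0.445% were called higher and 0.256% lower, with no member higher and Ces2a lower. Since the genes were chosen with these contrasts known, nothing is read from their counts, and the 3 comparisons share their 18 controls. The median log2 difference of the 7 genes was -0.08, -0.11 and -0.04 at 7, 14 and 21 days, beside -0.01, 0.00 and 0.01 over all genes.

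How these calls moved with single arrays and with the scaling is given as a description of the fit, not as support for the differences. Ces2a at 7 days was called under every alternative tried. Ces2e at 7 days was called under each except with the HFD arrays numbered 5 to 8 alone. Ces3b at 7 days was not called without 7-day array 2, 4 or 7, where its log2 difference over all omissions ran from -0.51 to -0.39. Ces2a at 21 days was not called without 21-day array 1, 2, 3, 4 or 6 (range -0.43 to -0.30). Ces2e at 14 days was not called after any of 20 single omissions, namely controls 1, 2, 3, 5, 7, 8, 10, 12, 14, 15 and 17, 7-day arrays 3, 6 and 8 and 14-day arrays 1, 2, 3, 5, 6 and 7 (range 0.45 to 0.58). After quantile normalization Ces1g was also called lower at 7 days (-0.42), Ces2a lower at 14 days (-0.30) and Ces2e higher at 21 days (0.43). Median centring ended the calls of Ces3b at 7 days (-0.43), Ces2e at 14 days (0.49) and Ces2a at 21 days (-0.36). The same 3 calls were not made with controls 1 to 9 alone, with controls 10 to 18 alone or with HFD arrays 5 to 8 alone. Under the replicate block Ces2e at 14 days and Ces2a at 21 days were not called. Nor was Ces2e at 14 days with HFD arrays 1 to 4 alone, or Ces2a at 21 days with limma's trend and robust settings.

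Malat1 differed between the lower and higher array numbers in each HFD group, and the means of several members differed too at some times. Malat1 ran from 8.61 to 9.57 on the 12 HFD arrays numbered 5 to 8 and from 5.76 to 7.41 on the 12 numbered 1 to 4. At 21 days Ces2a averaged 8.83 ± 0.16 on arrays 1 to 4 and 9.28 ± 0.27 on arrays 5 to 8 (SD, n = 4 each), or -0.58 and -0.13 against control on the log2 scale. Ces3b did likewise, at 10.03 ± 0.12 and 10.45 ± 0.27, or -0.60 and -0.18 against control. Ces2e was also lower on arrays 1 to 4, at 9.21 ± 0.32 against 9.57 ± 0.18, so its difference from control was 0.23 on arrays 1 to 4 and 0.59 on arrays 5 to 8. At 7 days the 2 sets of numbers lay closer for these 3 genes: -0.43 and -0.54 for Ces2a, -0.50 and -0.40 for Ces3b, and 0.70 and 0.54 for Ces2e. At 14 days the differences were -0.29 and -0.26 for Ces2a, -0.31 and -0.14 for Ces3b, and 0.50 and 0.50 for Ces2e. Ces1g at 7 days was lower on arrays 5 to 8, at 8.59 ± 0.18, than on arrays 1 to 4, at 8.92 ± 0.10 (SD, n = 4 each), so its difference from control was -0.51 on arrays 5 to 8 and -0.18 on arrays 1 to 4. Ces1f at 21 days differed from control by -0.29 on arrays 1 to 4 and by 0.10 on arrays 5 to 8. The labels do not say what the numbers stand for, and the difference between the 2 sets was not tested.

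The carboxylesterase genes lie on chromosome 8 in 2 runs in RefSeq's order, with 9 genes from Ces1a to Ces5a and 11 from Ces2a to Ces4a. Besides the members, 8 of the other 12 genes were measured: Ces1a, Ces1b, Ces1e, Ces2b, Ces2f, Ces2g, Ces4a and Ces5a. Ces1b was called lower by limma at 7 days, by 1.36-fold (log2 change -0.45 ± 0.11, SE, adjusted p = 0.0155), and at 14 days by 1.34-fold (-0.42 ± 0.11, adjusted p = 0.0458). At 21 days the change was -0.30 (adjusted p = 0.393). Its values ran from 8.25 to 9.19 at 7 days and 8.59 to 9.27 at 14 days, against 8.88 to 9.73 in controls, and 5 of 8 arrays at each of these times lay below all controls. The difference between its effects at 7 and 21 days was not called.

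**Figure D3:**
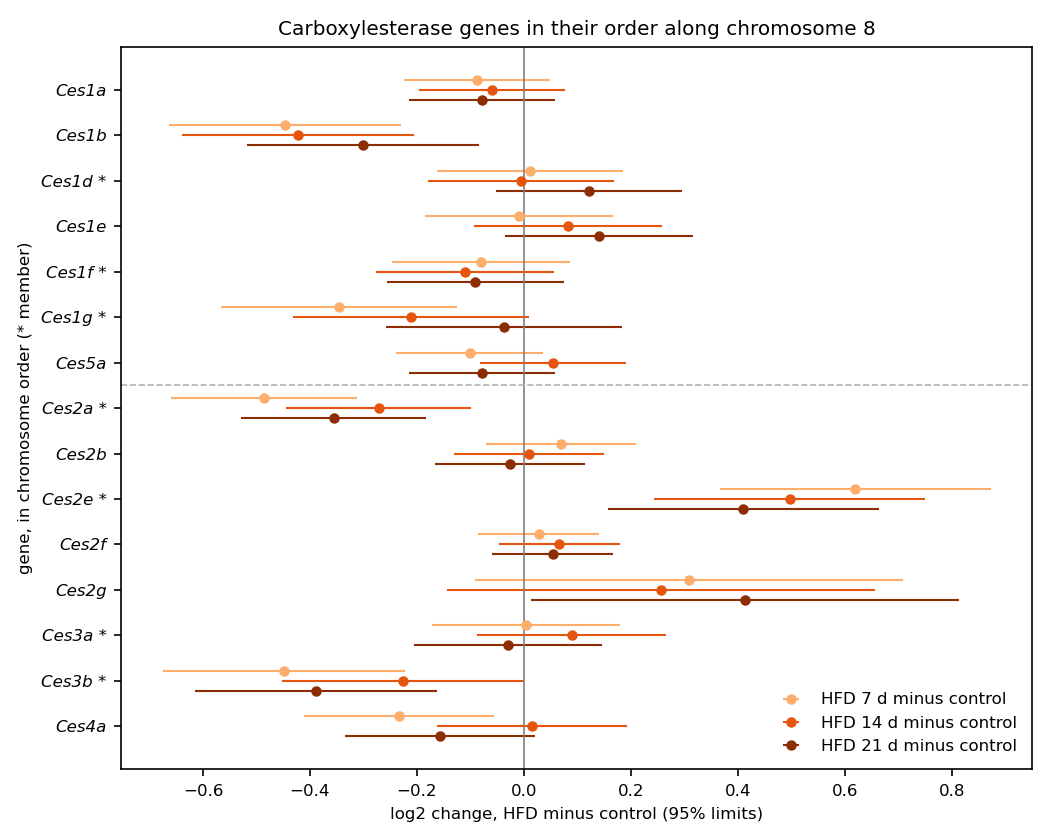
Log2 change from control (horizontal axis) with 95% limits from limma, for the 15 measured carboxylesterase genes in their order along chromosome 8 (vertical axis), after 7, 14 and 21 days of HFD; asterisks mark the chosen members and the dashed line parts the 2 runs of genes. Lower genes (Ces1b, Ces2a and Ces3b) and a higher one (Ces2e) lie among genes such as Ces2b, Ces2f and Ces3a, whose limits span 0 at each time.

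The Ces1b call was not made at 7 days without 7-day array 3 (limma adjusted p = 0.0884), under the replicate block, with HFD arrays 5 to 8 alone or with controls 1 to 9 alone. At 14 days it was lost under 7 of the other alternatives: median centring, all single-symbol probe sets tested, limma with trend and robust settings, the replicate block, HFD arrays 5 to 8 alone and either set of controls alone. It was also lost after 24 single omissions, with adjusted p from 0.0147 to 0.157 over all 42: controls 2, 3, 7, 8, 9, 10, 12, 14, 15 and 18, 7-day arrays 1, 2, 4, 6 and 8, 14-day arrays 1, 2, 3, 4, 5 and 7, and 21-day arrays 4, 5 and 8. None of the other 7 genes was called at any time. Ces2g averaged 6.80 ± 0.58, 6.74 ± 0.45 and 6.90 ± 0.39 at 7, 14 and 21 days (SD, n = 8 each) and 6.49 ± 0.51 in controls (n = 18), with limma adjusted p of 0.676, 0.965 and 0.717. On 7-day arrays 1 to 4 Ces2g ran from 7.07 to 7.44 and on arrays 5 to 8 from 5.97 to 6.58, and Malat1 from 6.60 to 7.01 and from 8.79 to 9.43 in the same order. Ces1e, at 10.06 ± 0.14, 10.15 ± 0.22 and 10.21 ± 0.25 in HFD livers and 10.07 ± 0.20 in controls, lay within the control spread. Ces1a, Ces2b, Ces2f, Ces4a and Ces5a had group means of 2.65 to 3.51, near the background level of 2.86. Signals of probe sets of near-identical family members can include each other's transcripts, which was not tested.

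The HFD times can be compared without the controls. No member was called between 14 and 7 days (0% of all genes called), between 21 and 7 days (0.00556%), between 21 and 14 days (0%) or by limma's F test over the 3 times (0.00556%). The adjusted p-values of the 7 members ran from 0.658 to 0.9998. At an unadjusted p under 0.05 limma found 451 genes for 14 against 7 days, 1283 for 21 against 7 days and 715 for 21 against 14 days, and 1 member in each of the first 2. These were Ces2a, higher at 14 than at 7 days by 0.21 on the log2 scale (95% limits 0.01 to 0.42), and Ces1g, higher at 21 than at 7 days by 0.31 (0.05 to 0.57). Over all members the limits for 21 against 7 days reached from -0.51 to 0.57, so changes of that size with time are not shut out by these arrays. The only gene called between times, named after its values were seen, was Lcn2, an acute-phase secreted protein, which fell at 21 days relative to 7 days (log2 change -0.77, limma adjusted p = 0.0284).

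Other genes of the same pathways were taken from lists by function. The lists were written with earlier results of these data known, so their counts are not independent evidence of a direction. Of 23 neutral lipid and ester hydrolases 21 were measured. At 7 days 5 of them rose and none was called lower, where 1.16% of all genes were called higher and 0.239% lower. The 5 were Mgll (monoacylglycerol lipase), Nceh1 (a cholesteryl ester hydrolase), Pnpla3, Ddhd2 and Abhd6. At 14 days Mgll and Nceh1 rose, and at 21 days both rose while Lpl (lipoprotein lipase) fell. Among all genes 0.506% were called higher at 14 days, and 0.445% higher and 0.256% lower at 21 days. The median log2 change of the 21 genes was 0.15, 0.10 and 0.01 at 7, 14 and 21 days, beside -0.01, 0.00 and 0.01 over all genes.

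Mgll averaged 7.96 ± 0.25 at 7 days, 7.83 ± 0.15 at 14 days and 7.71 ± 0.32 at 21 days (SD, n = 8 each) and 6.91 ± 0.34 in controls (n = 18), and its log2 change was 1.05 (limma adjusted p = 3.89e-08), 0.93 (1.44e-06) and 0.80 (3.41e-05). No 7-day or 14-day array overlapped the controls, whose highest value was 7.51. Nceh1 rose by 0.72 at 7 days (adjusted p = 8.95e-08), 0.60 at 14 days (1.35e-05) and 0.56 at 21 days (5.74e-05) by limma. At 7 days Pnpla3, a lipid droplet acyltransferase and hydrolase, rose to 4.83 ± 0.76, against 3.83 ± 0.34 in controls (limma adjusted p = 0.00253), Ddhd2 rose by 0.42 on the log2 scale (0.00946) and Abhd6 by 0.37 (0.0409). The Ddhd2 call was lost without 7-day array 6 (adjusted p = 0.0521). The Abhd6 call was lost after 13 single omissions (controls 3, 5, 6, 7, 8, 17 and 18 and 7-day arrays 1, 2, 3, 4, 5 and 8), with adjusted p up to 0.216. Lpl fell at 21 days by 1.02 on the log2 scale, to 4.34 ± 0.37 in HFD livers against 5.36 ± 0.42 in controls (limma adjusted p = 1.19e-04). At 7 and 14 days Lpl averaged 4.81 ± 0.13 and 4.83 ± 0.57 (SD, n = 8 each), log2 differences of -0.55 and -0.53 that were not called. The Lpl call was lost with HFD arrays 5 to 8 alone, and so were those of Ddhd2 and Abhd6 at 7 days. With controls 10 to 18 alone Pnpla3, Ddhd2 and Abhd6 were not called. Pnpla3 was also not called with HFD arrays 1 to 4 alone, and Ddhd2 was not under the replicate block. Abhd6 was further not called after quantile normalization, with trend and robust settings or with controls 1 to 9 alone.

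Of 13 genes of triglyceride synthesis and VLDL assembly 11 were measured. At 7, 14 and 21 days 3, 2 and 2 of them were called, all higher. Among all genes 1.16%, 0.506% and 0.445% were called higher at these times. Of all calls 82.9%, 75.8% and 63.5% were higher, so nothing is read from the shared direction. Apoa4, an apolipoprotein of triglyceride-rich particles, averaged 11.82 ± 0.23, 11.48 ± 0.33 and 11.30 ± 0.32 at 7, 14 and 21 days (SD, n = 8 each) and 9.99 ± 0.38 in controls (n = 18). These were log2 changes of 1.84, 1.49 and 1.32 (limma adjusted p at most 4.44e-09), and no HFD array overlapped the controls. Plin2, the coat protein of lipid droplets, rose by 1.06, 0.72 and 0.67 (limma adjusted p at most 1.01e-05). Sar1b, a small GTPase of vesicle export from the endoplasmic reticulum, rose by 0.43 at 7 days (limma adjusted p = 0.00904). The Sar1b call was lost after quantile normalization, under the replicate block, with HFD arrays 5 to 8 alone and with controls 1 to 9 alone. The other 8 measured genes were not called at any time.

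Of 15 measured genes among 19 targets of PXR and CAR, none was called at 7 or 14 days. By limma 2, 3 and 3 of them had an unadjusted p under 0.05 at 7, 14 and 21 days. Over all 17989 genes 1669, 1079 and 1198 did. At 21 days 1 of the 15 was called, Gstm3, a glutathione transferase, which fell by 0.80 (limma adjusted p = 0.0329). That call was lost without control 1, 4, 10, 13 or 16 or 21-day array 2, 3, 5 or 6, with adjusted p up to 0.162. Of 9 measured regulators out of 11, Ppara, the fatty acid receptor, rose by 0.65 at 7 days (limma adjusted p = 0.00265) and 0.55 at 14 days (0.0360). The 14-day Ppara call was lost without control 1, 2, 3, 8, 10 or 14 or 14-day array 1, 2, 5, 7 or 8, with adjusted p up to 0.143. Both Ppara calls and that of Gstm3 were also lost with HFD arrays 5 to 8 alone and with controls 10 to 18 alone. The Gstm3 call and the 14-day Ppara call were further lost under the replicate block and with HFD arrays 1 to 4 alone. Median centring ended the 14-day Ppara call, and using controls 1 to 9 alone ended that of Gstm3. The other 8 regulators were not called.

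Between arrays of the same group the levels of the members were mostly positively correlated, a measure that does not use the HFD against control difference. Over the 24 HFD arrays with group means removed, all 21 pairs of the 7 genes had a positive Pearson r, from 0.14 to 0.79 with a median of 0.54, and 12 passed a permutation test within groups after adjustment over the 21 pairs. Over all 97020 pairs of the 441 genes at least as bright as the dimmest member, 66.0% were positive and the median r was 0.22, so part of this is shared by bright genes on these arrays. Ces1g with Ces3a had r = 0.79 and rho = 0.73 (adjusted permutation p = 3.15e-04 for r), and r = 0.70 without the 2 arrays farthest from the median. Ces2a with Ces3b had r = 0.76 and rho = 0.75 (adjusted permutation p = 3.15e-04), and r = 0.72 without the 2 farthest. Ces2a with Ces2e, which differed from control in opposite directions, had r = 0.66 and rho = 0.63 (adjusted permutation p = 0.00772), and r = 0.60 without the 2 farthest.

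**Figure D4:**
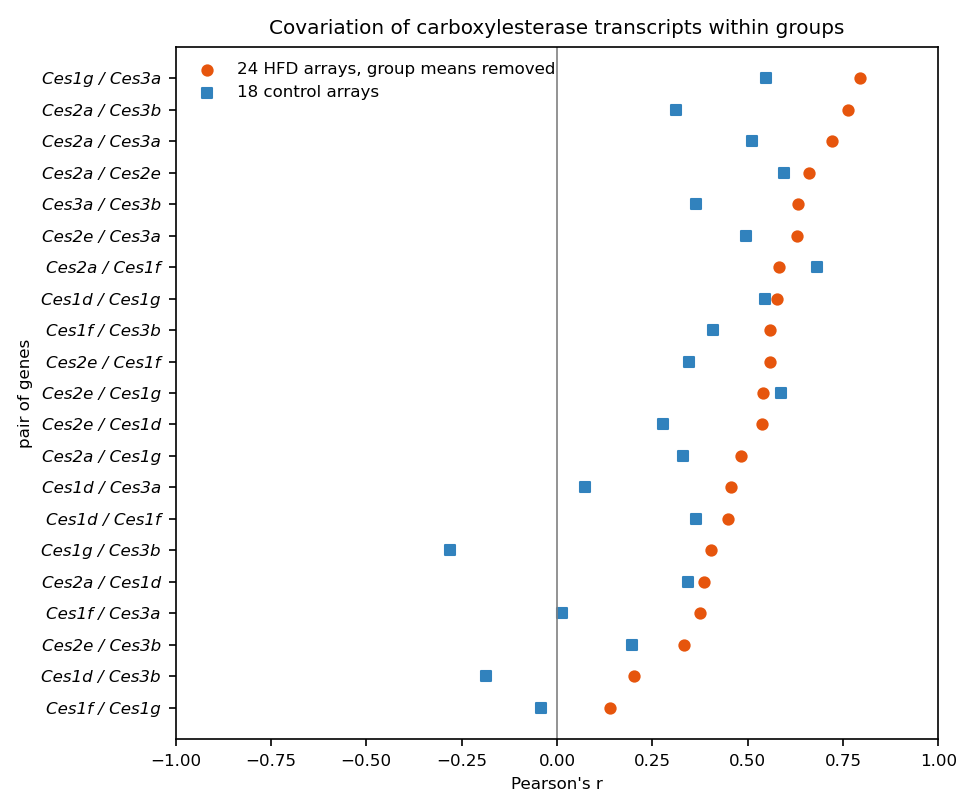
Pearson's r (horizontal axis) for the 21 pairs of measured carboxylesterases (vertical axis), over 24 HFD arrays with group means removed (orange circles) and over 18 control arrays (blue squares). All 21 values are above 0 in HFD arrays and 18 of 21 in controls.

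The same was weaker in the 18 controls, where r ran from -0.28 to 0.68 with a median of 0.35 and 1 of 21 pairs passed. It was Ces2a with Ces1f, at r = 0.68 and rho = 0.70 (adjusted permutation p = 0.0336 for r and 0.0403 for rho), r = 0.58 without the 2 farthest arrays. Its r was 0.47 among controls 1 to 9 and 0.89 among controls 10 to 18. Ces2a with Ces2e had r = 0.60 and rho = 0.43 in controls (permutation p = 0.00915, adjusted 0.0717), and r = 0.37 without the 2 farthest, so this relation rests in part on those arrays. Whether the pairs differed between HFD and control arrays was not tested.

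Scaling changed this picture. After quantile normalization 2 of 21 pairs passed in the HFD arrays, with a median r of 0.21, and none in controls, with a median of 0.11. Over all pairs of the 441 bright genes the median r was then 0.00 in both sets of arrays, and without that scaling it was 0.13 in controls. A scaling component common to bright genes and a relation among the members cannot be told apart for the pairs that no longer passed. The 2 pairs were Ces1g with Ces3a (r = 0.69, rho = 0.56, adjusted permutation p = 0.0169) and Ces2a with Ces3b (r = 0.61, rho = 0.64, adjusted permutation p = 0.0169). Ces2a with Ces2e then had r = 0.45 (adjusted permutation p = 0.167). With means removed for each group and set of numbers (1 to 4 or 5 to 8), 17 of 21 pairs passed in the HFD arrays.

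Of 14 relations of members to acinar level or Malat1 in controls 1 passed: Ces1g was lower where Malat1 was higher (r = -0.75, rho = -0.79, adjusted permutation p = 0.00476, r = -0.70 without the 2 farthest arrays). Its r was -0.81 among controls 1 to 9 and -0.57 among controls 10 to 18. In the HFD arrays r was -0.19 for this pair, and Ces1f passed instead, higher with Malat1 (r = 0.67, rho = 0.62, adjusted permutation p = 0.00336). With the means of the 2 number sets also removed, Ces1f with Malat1 had r = 0.37 (adjusted permutation p = 0.527). No member passed with acinar level in controls, where r ran from -0.44 for Ces2e to 0.17 for Ces1d.

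The genes most like each of the opposed members over the 42 arrays were found by Pearson's r, as a description with no test, and arrays share diet and scaling. For Ces2e they were Gbe1 (r = 0.87), Gpam (0.87), Elovl2 (0.86), Acaca (0.85) and Adipor2 (0.85), and with group means removed r was 0.75 to 0.78. Acaca makes malonyl-CoA for fatty acid synthesis, Gpam starts glycerolipid synthesis, Elovl2 elongates polyunsaturated fatty acids, Gbe1 branches glycogen and Adipor2 is an adiponectin receptor. For Ces2a they were Abcb11 (0.78), Cps1 (0.78), Ces3b (0.78), Acsm1 (0.75) and Etnppl (0.74), at 0.55 to 0.78 with group means removed. Abcb11 is the bile salt export pump and Cps1 the first enzyme of the urea cycle. Ces2a and Ces2e themselves had r = -0.14 over the 42 arrays and 0.60 with group means removed.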

How the data were processed

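The authors' deposited log2 expression values of 42 Affymetrix arrays were used as given. They were made by RMA (Affymetrix Expression Console 1.1), per the submitters' processing notes. No source used here names the array's genome build. Of 32624 probe sets, 19559 had 1 gene symbol, 1469 several and 11596 none, and the brightest single-symbol probe set stood for each of 17989 genes. One probe set with missing values on 33 arrays was left out. Array medians ran from 3.08 to 3.28, and no array copied another (smallest SD between 2 arrays 0.255). The number of arrays limits the precision.

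All 42 arrays entered 1 fit of 4 groups in limma 3.58.1 (R 4.3.3), with Benjamini-Hochberg adjustment over all genes, a threshold of 0.05 and 2-sided tests. The fit was tested on simulated data. Correlations used 100000 permutations, within groups for HFD arrays and exact under 10 arrays. With Ces2c unmeasured, 21 pairs and 14 marker relations replaced the 28 and 16 planned. All members and every measured Ces gene are named, with called members of each list and the 5 genes most like Ces2a and Ces2e. The members and lists were chosen with earlier results of these data known.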

Additional observations from a re-analysis of the deposited data

Results flagged for a closer look

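One array stood apart in its group. On 21-day HFD array 4, Ces5a had a log2 value of 3.74, while the other 7 arrays of the group ran from 3.24 to 3.46. The level is near the background of 2.86. Of 45 sets of 8 HFD arrays examined (15 carboxylesterase genes at 3 times) this was the 1 with so isolated an array, where chance alone marks about 1 set in 20.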

How the results depend on the processing

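Over the alternatives tried, no carboxylesterase change called at an adjusted p under 0.05 changed sign. The alternatives reuse the same arrays, and the members were chosen with these contrasts known. For the members this is therefore a description of the fit and not support for the differences. Across genes named here, leaving out 1 array at a time kept 4533 values on their side of the threshold or within the control SD and ended 87 calls, and the other settings kept 1257, ended 54, made 8 and moved 9 by more than the control SD. The causes were not tested.

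The count of genes called at 7 days, 251, was 605 with array weights, 144 with HFD arrays 5 to 8 alone and 397 with acinar level and Malat1 as covariates. At 14 days 120 became 193 with array weights, 77 with the replicate block, 69 and 58 with HFD arrays 1 to 4 or 5 to 8 alone and 61 with controls 10 to 18 alone. At 21 days 126 became 903 and 349 with HFD arrays 1 to 4 or 5 to 8 alone and 71 with controls 10 to 18 alone. Leaving out 1 array gave 195 to 273, 81 to 126 and 107 to 131. Of the calls at 7 days 82.9% were higher, and 71.2% after quantile normalization.

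Between HFD times, 14 against 7 days gave 3 genes with array weights and 0 to 1 without single arrays. For 21 against 7 days the 1 gene became 0 with quantile normalization, array weights, the replicate block or HFD arrays 1 to 4 or 5 to 8 alone, and 0 to 1 without single arrays. For 21 against 14 days every omission gave 0. The F test gave 3 with array weights, 0 with quantile normalization, the replicate block or HFD arrays 1 to 4 or 5 to 8 alone, and 0 to 1 without single arrays.

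Between groups, 48 pairs of arrays with equal replicate numbers correlated at a median of 0.08 and 22 exceeded 0.1. Pairs with unequal numbers had a median of -0.02. Between HFD times, the most similar array had the same number in 10 of 48 cases. These values do not settle whether the numbers pair the arrays. Under the replicate block 227, 77 and 93 genes were called at 7, 14 and 21 days, and of the members Ces2a, Ces2e and Ces3b at 7 days.

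Of the 21 pairs, 1 passed in controls, 0 after quantile normalization, 0 in controls 1 to 9, 12 in HFD arrays, and, in settings chosen after seeing the data, 2 in HFD arrays after quantile normalization and 17 with the means of arrays 1 to 4 and 5 to 8 removed. Marker relations passing became 0 in controls 1 to 9, 0 in controls 10 to 18 and 0 in HFD arrays with those means removed. In that last setting Ces1g with Ces3b had r = 0.57 (r = -0.28 in controls) and Malat1 with Ces1g had r = 0.10.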
